A study of Mus musculus with 12 samples.

Results

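The effect of P53 deletion was compared between the serum and 2i cultures of G1-phase mouse ESCs, as a difference of differences. For each gene, the P53-/- minus WT difference in serum ESCs was subtracted from the P53-/- minus WT difference in 2i ESCs. A negative value means that P53-/- cells lay lower against WT in 2i than in serum, and a positive value the opposite. The comparison covered 11292 of the 24881 gene symbols in the deposited table, namely those outside small RNA genes with a mean of at least 1 FPKM over all libraries (FPKM, fragments counted for a gene divided by its transcript length and by the mapped fragments of the library). *Zfp456*, at a mean just over 1 FPKM, was the last symbol taken in, and *Tm6sf1*, at 0.998 FPKM, the first left out.

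All cells were R1 ESCs, a mouse embryonic stem cell line, that carried the FUCCI reporters, fluorescent proteins that mark cell cycle phases, and all were sorted in G1 phase. The 4 groups were WT in serum medium with LIF, P53-/- in the same medium, WT in 2i (N2B27 medium with PD0325901, CHIR99021 and LIF), and P53-/- in 2i, with 2 libraries each. The deletion was made with CRISPR/Cas9 in an exon shared by the *Trp53* isoforms, and each P53-/- line is a single clone. The study used clones 1 and 2 for RNA-seq, the table does not tie a library to a clone, and libraries are numbered here by their order within a group. Nothing in the labels says that libraries came from separate cultures, so p-values measure the spread between these libraries, which may be technical. In P53-/- the spread may also hold differences between clones, which was not tested, and all groups shared 1 estimate of spread. Of the 12 RNA samples of the series, 4 (P21-/- and their WT) were not analysed here.

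P53 is a transcription factor that binds DNA as a tetramer and activates genes for cell cycle arrest (*Cdkn1a*, which encodes P21), for apoptosis, and for its own feedback control (*Mdm2*). Most genes that fall when P53 is active are reached indirectly: P21 inhibits the cyclin-dependent kinases, the pocket proteins stay hypo-phosphorylated, and complexes with E2F and MuvB proteins repress cell cycle genes through elements in their promoters. In 2i, PD0325901 inhibits MEK and CHIR99021 inhibits GSK3, which keeps ESCs in the ground state, with a longer G1 phase than in serum.

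Depth, estimated from the steps between low FPKM values, was between 5050000 and 12900000 fragments per library up to a common factor, and 15001 to 15672 genes outside small RNA genes had a value above 0. The 8 ESC markers summed to between 3094 and 4201 FPKM in each library, 6 fibroblast feeder markers to between 0.761 and 10.5 FPKM (*Thy1* made up nearly all of it in serum), and 5 primitive endoderm markers to between 1.03 and 4.19 FPKM. The 4 Y-linked genes examined summed to 0 FPKM in all 4 P53-/- libraries, to 2.17 and 25.7 FPKM in WT 2i libraries 1 and 2, and to 14.9 and 17.2 FPKM in WT serum. P53-/- libraries thus differed from WT in Y-linked RNA as well as in *Trp53*, and its part in the results was not tested. Between the libraries of one group, the median SD was 0.0971 in WT serum, 0.149 in P53-/- serum, 0.134 in P53-/- 2i and 0.170 in WT 2i on the log2(FPKM + 0.1) scale.

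The P53 effect differed between the cultures for 44 of 11292 genes (0.390%; limma, adjusted p under 0.1 and a difference over 1.5-fold). Of these, 29 had a negative difference (0.257%) and 15 a positive one (0.133%). At an unadjusted p under 0.05 there were 1543 genes, 717 negative and 826 positive, and over all genes the median difference was 0.02 with 48.3% of genes below 0. In the same fit 1296 genes (11.5%) were called for the P53 effect in 2i, 737 lower (6.53%) and 559 higher (4.95%), and 184 genes (1.63%) in serum, 142 lower (1.26%) and 42 higher (0.372%). The median standard error of the difference of differences was 0.27, so that a gene had to differ by well over the 1.5-fold limit to pass.

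Of 1179 genes called in 2i and not in serum, 35 (2.97%, against 0.390% of all genes) passed the test of the difference and 694 (58.9%, against 13.7% of all genes) reached an unadjusted p under 0.05. Of 67 genes called in serum and not in 2i, 0 passed in limma and 46 (68.7%) reached an unadjusted p under 0.05. These genes were chosen by the effects that the difference is made of, so the shares are a description. Among 106 genes lower in both cultures the median P53 effect was −1.79 in 2i and −1.57 in serum, and 6 of them had a called difference. The 9 genes higher in both had none called, with 1 at an unadjusted p under 0.05.

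**Figure D1:**
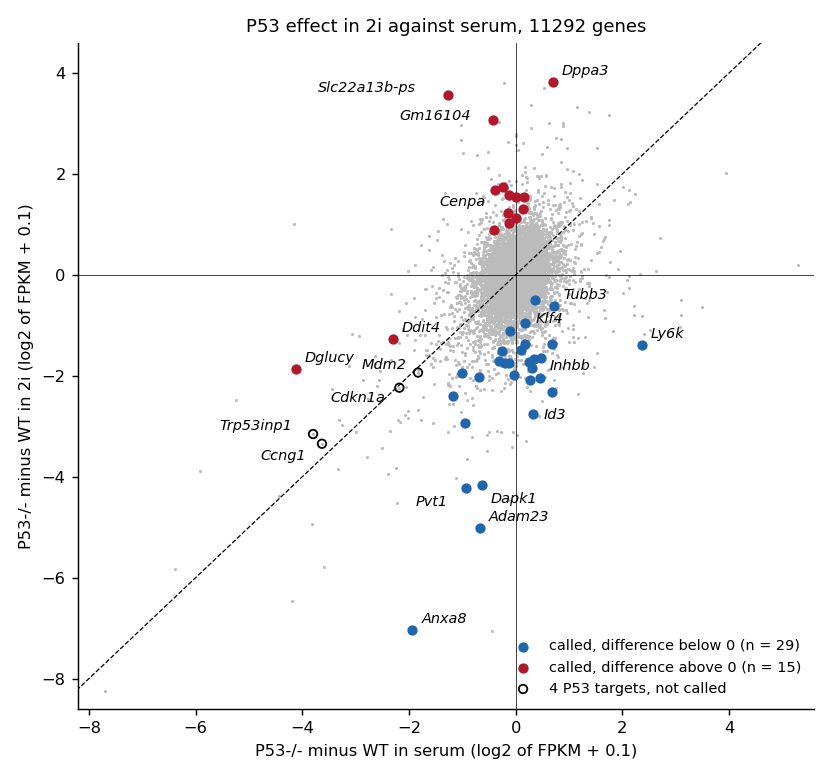
P53-/- minus WT on the log2(FPKM + 0.1) scale in serum (horizontal) and in 2i (vertical) for 11292 genes (grey), with the dashed line marking equal effects. The 29 genes in blue were called with a negative difference and the 15 in red with a positive one. *Cdkn1a*, *Ccng1*, *Mdm2* and *Trp53inp1* (open circles) were not called, with *Trp53inp1* at a difference of 0.65. Other P53 targets that were not called lie farther from the line, such as *Plk2* (2.77) and *Bbc3* (−1.57).

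*Trp53* itself was read first. Its level was 26.8 and 33.7 FPKM (WT) against 7.25 and 1.88 (P53-/-) in 2i, and 77.6 and 75.1 (WT) against 16.8 and 3.68 (P53-/-) in serum. All 4 P53-/- libraries lay below both WT libraries of their culture, and library 1 kept more *Trp53* RNA than library 2 in both cultures. *Trp53* fell by 2.98 in 2i and by 3.26 in serum on the log2 scale, and the difference of 0.28 had a 95% interval of −1.92 to 2.47. With each library left out, the difference lay between −0.80 and 1.36. FPKM sums fragments over the whole gene, so it does not measure loss of the protein.

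The best-known P53 targets fell in both cultures, with no called difference between them. *Cdkn1a*, the inhibitor of CDK2, was at 3.56 and 4.64 FPKM in P53-/- against 23.9 and 15.9 in WT under 2i, and 3.57 and 3.93 against 16.2 and 18.6 in serum. *Ccng1*, cyclin G1, was at 158 and 198 FPKM (WT) against 17.1 and 17.5 (P53-/-) in 2i, and 100 and 110 (WT) against 9.39 and 7.5 (P53-/-) in serum. *Mdm2*, the ubiquitin ligase that degrades P53, was at 12.8 and 12.3 FPKM in P53-/- against 42.8 and 54.5 in WT under 2i, and 21.8 and 19.8 against 79.7 and 69.3 in serum. For all 3 genes the P53-/- libraries lay below the WT libraries in each culture and the groups did not overlap.

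*Cdkn1a* fell 4.71-fold in 2i (adjusted p = 0.000717) and 4.54-fold in serum (adjusted p = 0.00237), and its difference of −0.05 had an interval of −0.76 to 0.65. The *Ccng1* difference was 0.29 (interval −0.21 to 0.78) and that of *Mdm2* −0.10 (interval −0.58 to 0.37). These intervals allow differences up to 0.78 in size on the log2 scale. With each library left out, the differences lay between −0.35 and 0.24 for *Cdkn1a*, 0.12 and 0.45 for *Ccng1*, and −0.28 and 0.07 for *Mdm2*. The values show no called difference and do not show that the effects were equal.

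The promoters of *Cdkn1a* and *Ccng1* held the letters of the P53 consensus, a pair of half-sites. They are shown because both genes fell in both cultures. The capitals mark a match with 1 mismatch to the consensus, in RefSeq promoter windows of build GRCm38.p6, on the gene's strand and 5′ to 3′.
Cdkn1a, chr17:29090908-29090967 (+): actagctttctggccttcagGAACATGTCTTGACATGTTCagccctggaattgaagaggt
Ccng1, chr11:40755442-40755501 (−): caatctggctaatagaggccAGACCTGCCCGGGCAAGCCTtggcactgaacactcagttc
With up to 2 mismatches, half-sites 0 or 1 base apart and the core C and G of each half-site kept, such a match was in the 300-base window (250 bases before the start and 50 after) of 5 of 46 genes of the P53 lists (10.9%) of 86 of 8966 tested genes with a window (0.959%), and of 0.807% of all 27025 symbols with a window. Among genes called for the difference between the cultures it was in 0 of 23 windows on the negative side and 0 of 10 on the positive side, which says only that these letters were not in these windows.

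Over 5 hand-written lists of P53 feedback genes and targets, 56 genes were tested. In 2i 32 of them were called lower (6.53% of all genes were) and in serum 24 (1.26% of all genes), with none called higher. In both cultures 23 were called lower, of 106 among all 11292 genes. Their median P53 effect was −0.99 in 2i and −0.58 in serum, beside 0.03 and 0.02 over all genes. The median difference was −0.12. At an unadjusted p under 0.05 in limma, 16 of the 56 differed between the cultures, in both directions (13.7% of all genes did). Of the 56, 1 had a called difference (0.390% of all genes did). That 1 was *Ddit4*, which encodes an inhibitor of mTORC1 induced by stress and by P53.

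*Ddit4* was at 60.3 and 53.8 FPKM (WT) against 24.8 and 22.4 (P53-/-) in 2i, and 20.4 and 21.7 (WT) against 4.37 and 4.01 (P53-/-) in serum. It fell in both cultures, by more in serum (−2.31) than in 2i (−1.27), and the difference was 1.04 ± 0.19 (SE, adjusted p = 0.0979). *Plk2*, a P53-induced kinase of the Polo family, did not pass. It was at 10.3 and 14.2 FPKM in P53-/- against 58.2 and 79.1 in WT under 2i, and 0.544 and 0.152 against 17.1 and 13.5 in serum, with a difference of 2.77 (adjusted p = 0.108) that was 1.21 with a pseudocount of 1. *Bbc3*, which encodes the apoptosis inducer PUMA, had the opposite sign at −1.57 (adjusted p = 0.161), with 9.54 and 11.4 FPKM (WT) against 0.697 and 0.476 (P53-/-) in 2i, and 5.89 and 4.0 (WT) against 0.756 and 0.947 (P53-/-) in serum.

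*Cpt1c*, a carnitine palmitoyltransferase isoform known from brain, had a difference of −1.58 (adjusted p = 0.217). *Psrc1* had a difference of −0.81 (adjusted p = 0.274), which lay between −1.16 and −0.47 with each library left out, and *Zmat3* one of −0.85 (adjusted p = 0.213; −0.18 with a pseudocount of 1), while *Trp53inp1* had 0.65 (adjusted p = 0.178). Of the 5 lists, those for feedback (−0.09), cell cycle arrest (−0.15), apoptosis (−0.13) and metabolism (−0.26) had medians below 0, and that for DNA repair a median of 0.23 above it. The sign for feedback turned under quantile normalization (0.06). With each library left out, the medians lay between −0.23 and 0.06 for feedback, −0.51 and −0.01 for arrest, −0.20 and −0.09 for apoptosis, −0.43 and −0.19 for metabolism, and 0.01 and 0.41 for repair.

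The pocket proteins, which restrain E2F in G1 phase, gave no called difference either. *Rb1* was at 0.391 and 0.927 FPKM in P53-/- against 1.44 and 1.85 in WT under 2i, and 0.650 and 1.08 against 3.26 and 3.5 in serum. *Rbl2*, which encodes P130, was at 2.62 and 3.33 FPKM (WT) against 1.24 and 1.57 (P53-/-) in 2i, and 3.01 and 2.72 (WT) against 1.45 and 1.15 (P53-/-) in serum. Both genes were lower in P53-/- libraries in both cultures with no overlap. The differences were 0.60 for *Rb1* (interval −0.74 to 1.93) and 0.06 for *Rbl2* (interval −0.80 to 0.93), and at these low levels the intervals were wide. With each library left out, the differences lay between 0.06 and 1.13 for *Rb1*, and between −0.10 and 0.23 for *Rbl2*.

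**Figure D2:**
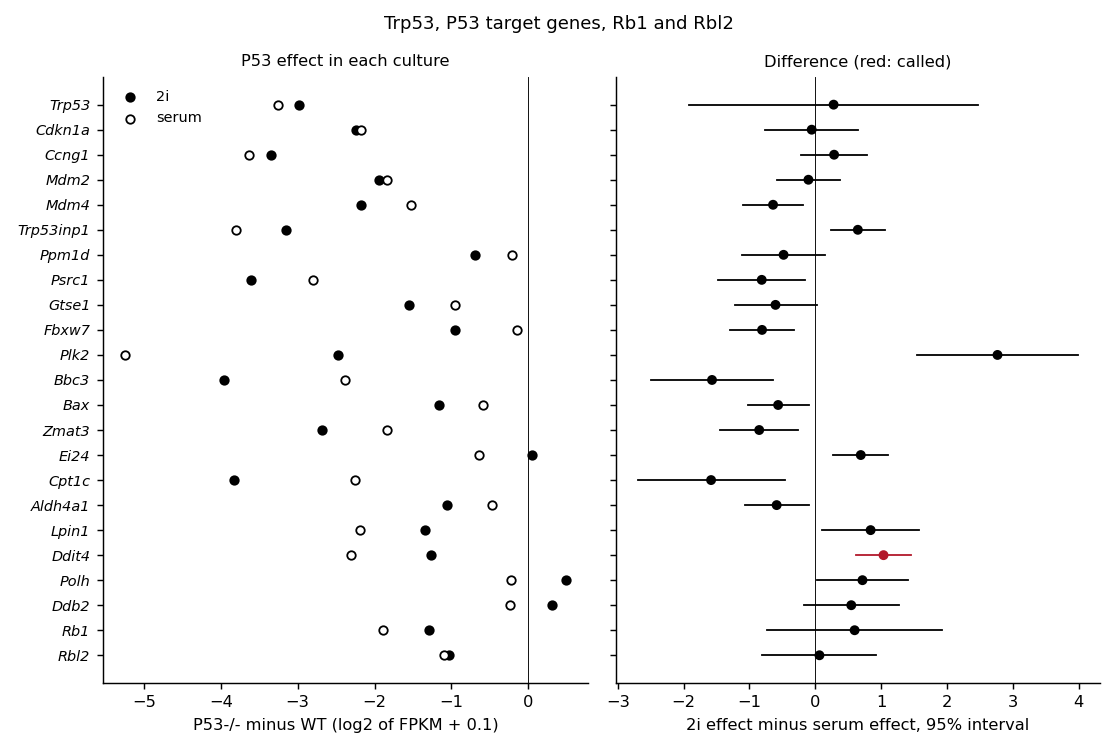
Left, P53-/- minus WT for *Trp53*, 20 P53 target or feedback genes, *Rb1* and *Rbl2* in 2i (filled) and serum (open). Right, the difference of these effects with its 95% interval on the same log2(FPKM + 0.1) scale, in which *Ddit4* (red) was the only gene called and *Plk2* lay farthest from 0 at the pseudocount of 0.1.

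The genes with a negative difference were mostly lower in P53-/- in 2i and not called in serum. Among the 29, 22 were called lower in 2i and not called in serum, 4 were called lower in both and further down in 2i (*Dyrk3*, *Exoc4*, *Mcm3ap* and *Pvt1*), *Ly6k* and *Tubb3* were called lower in 2i and higher in serum, and *Jarid2* was called in neither. In 2i, the P53-/- libraries of all 29 lay below both WT libraries, as did those of 24.3% of all genes tested. The median P53 effect over the 29 genes was −1.76 in 2i and 0.10 in serum. In 15 of the 29 the 2 effects had opposite signs. The 29 were chosen by the difference of these 2 effects, so the separation, medians and signs are a description.

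*Adam23*, a cell surface protein of the ADAM family without protease activity, had the smallest p-value. It was at 0.0962 and 0.0856 FPKM in P53-/- against 6.52 and 5.69 in WT under 2i, and 14.8 and 16.9 against 24.6 and 26.1 in serum. Both WT 2i libraries were more than 50 times the P53-/- 2i libraries, while in serum the effect was −0.68 (adjusted p = 0.174) with P53-/- below WT. The difference was −4.34 ± 0.26 (SE, adjusted p = 0.000369), and with a pseudocount of 1 it was −2.05 and still called.

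*Dapk1*, a calmodulin-regulated kinase that promotes cell death, followed the same course. It was at 3.84 and 5.77 FPKM (WT) against 0.205 and 0.135 (P53-/-) in 2i, and 8.17 and 8.73 (WT) against 5.14 and 5.62 (P53-/-) in serum. It fell 18.0-fold in 2i (adjusted p = 7.37e-05), while in serum the effect was −0.64 (adjusted p = 0.378) with P53-/- below WT in both libraries. The difference was −3.53 ± 0.37 (SE, adjusted p = 0.0147), and −1.73 with a pseudocount of 1, still called.

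*Pvt1*, the long non-coding RNA next to *Myc*, was at 0.527 and 0.558 FPKM in P53-/- against 12.6 and 11.3 in WT under 2i, and 6.5 and 5.09 against 10.7 and 11.3 in serum. The P53-/- 2i libraries were the lowest, and the culture effect in WT was 0.11 (adjusted p = 0.626). It fell 18.7-fold in 2i and 1.90-fold in serum, and the difference was −3.30 ± 0.27 (SE, adjusted p = 0.00212).

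*Id3*, an inhibitor of basic helix-loop-helix factors that BMP signaling induces, differed in another way. It was at 179 and 129 FPKM (WT) against 19.8 and 25.3 (P53-/-) in 2i, and 19.9 and 20.4 (WT) against 24.5 and 25.9 (P53-/-) in serum. WT 2i stood alone, and the other 6 libraries lay between 19.8 and 25.9 FPKM. The P53 effect was −2.75 in 2i and 0.32 in serum, with a difference of −3.08 ± 0.25 (SE, adjusted p = 0.00212).

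*Anxa8*, of the calcium-dependent membrane-binding annexins, had the most negative difference. WT libraries held 14.9 and 18.5 FPKM in 2i and 0.457 and 0.164 in serum. P53-/- libraries held 0.0593 and 0 FPKM in 2i, and in serum both were listed at 0. Only WT 2i libraries held more than 1 FPKM. Its difference of −5.11 ± 0.81 (SE, adjusted p = 0.0795) depends on the pseudocount, being −3.72 with a pseudocount of 1 and −4.47 with 0.01, where it was not called (adjusted p = 0.370). Of the other 8 annexins tested none was called (0.390% of all genes were). A difference above 0 was seen in 6 of the 9 (list median 0.50, or 0.30 without WT 2i library 2), with *Anxa2* at 1.42 (limma adjusted p = 0.169).

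*Inhbb*, the subunit of activin B, was at 1.88 and 1.57 FPKM in P53-/- against 6.22 and 8.72 in WT under 2i, and 52.1 and 68.4 against 41.6 and 45.4 in serum. *Rarg*, a retinoic acid receptor, was at 8.64 and 8.79 FPKM (WT) against 2.22 and 2.92 (P53-/-) in 2i, and 36.6 and 34.3 (WT) against 38.8 and 45.6 (P53-/-) in serum. In both genes P53-/- lay below WT in 2i and above WT in serum, with no overlap. The differences were −2.50 ± 0.29 for *Inhbb* and −1.98 ± 0.23 for *Rarg* (SE, both adjusted p = 0.0224).

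*Klf4*, a transcription factor of naive pluripotency, was at 23.2 and 26.3 FPKM in P53-/- against 48.2 and 48.3 in WT under 2i, and 47.7 and 57.7 against 46.5 and 46.7 in serum. *Foxd3*, a forkhead factor that ESCs need for self-renewal, was at 17.4 and 18.1 FPKM (WT) against 6.70 and 6.96 (P53-/-) in 2i, and 8.71 and 9.49 (WT) against 11.9 and 18.1 (P53-/-) in serum. P53-/- 2i libraries were the lowest of all for both genes, and the P53-/- serum libraries lay above WT serum. *Klf4* had a difference of −1.13 ± 0.19 (SE, adjusted p = 0.0795) and *Foxd3* one of −2.05 ± 0.28 (SE, adjusted p = 0.0525).

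Of the 17 naive pluripotency genes tested, 14 had a difference below 0 (48.3% of all genes did), with a median of −0.12 that lay between −0.22 and −0.12 with each library left out. *Klf4* (0.257% of all genes were called negative) and *Dppa3* (0.133% positive) were called, and *Tbx3* (−0.96, adjusted p = 0.119) and *Nanog* (−0.62, adjusted p = 0.309, between −0.84 and −0.39 with each library left out) were not. The ESC marker *Nanog* was at 249 and 261 FPKM in P53-/- against 359 and 311 in WT under 2i, and 329 and 452 against 323 and 335 in serum.

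*Tubb3*, the neuronal beta-tubulin, changed in both cultures in opposite directions. It was at 28.8 and 26.7 FPKM (WT) against 20.7 and 15.8 (P53-/-) in 2i, and 18.2 and 19.2 (WT) against 29.6 and 32.2 (P53-/-) in serum. *Ly6k*, a cell surface protein of the Ly6 family known from testis, was at 1.10 and 1.39 FPKM in P53-/- against 2.88 and 4.08 in WT under 2i, and 1.45 and 3.16 against 0.239 and 0.464 in serum. The order of the genotypes turned over between the cultures with no overlap in either. *Tubb3* had effects of −0.61 in 2i and 0.72 in serum and a difference of −1.33 ± 0.22 (SE, adjusted p = 0.0795), and *Ly6k* effects of −1.40 and 2.36 and a difference of −3.76 ± 0.62 (SE, adjusted p = 0.0795), which was −2.23 with a pseudocount of 1.

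*Jarid2*, an accessory subunit of Polycomb complex PRC2, was at 21.2 and 22.2 FPKM (WT) against 14.9 and 15.5 (P53-/-) in 2i, and 97.2 and 92.7 (WT) against 118 and 127 (P53-/-) in serum. Neither effect was called, at −0.51 in 2i and 0.37 in serum, and their difference was −0.88 ± 0.16 (SE, adjusted p = 0.0996). No other of the 24 Polycomb genes tested was called (0.390% of all genes were), and the list median was 0.02.

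*Ntn1*, the axon guidance ligand netrin-1, was at 4.62 and 5.24 FPKM in P53-/- against 14.6 and 19 in WT under 2i, and 14.8 and 12.1 against 14.7 and 16.1 in serum. *Gas6*, the ligand of the TAM receptor kinases, was at 12.0 and 12.7 FPKM (WT) against 1.20 and 1.92 (P53-/-) in 2i, and 3.80 and 3.57 (WT) against 1.84 and 1.86 (P53-/-) in serum. P53-/- was lower than WT in 2i for both, and in serum the *Ntn1* libraries of the genotypes overlapped. The difference was −1.54 ± 0.25 for *Ntn1* (SE, adjusted p = 0.0795) and −1.98 ± 0.34 for *Gas6* (SE, adjusted p = 0.0840).

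The other negative differences among the 15 largest were those of *Klk8*, a secreted serine protease (−2.99), *Armcx2*, an armadillo repeat protein (−2.35), *Pgbd5*, which descends from a piggyBac transposase (−2.15), the heparan sulfate proteoglycan *Gpc4* (−2.12) and *Smpdl3b*, a membrane-anchored phosphodiesterase (−2.0). Their adjusted p-values lay between 0.0795 and 0.0840. All 5 were lower in P53-/- in 2i and had serum effects between 0.26 and 0.67 that were not called. The 10 called genes not named by the rule, *Ada*, *Cited2*, *Dyrk3*, *Enc1*, *Exoc4*, *Hap1*, *Mcm3ap*, *Rec8*, *Slc39a14* and *Tmem181b-ps*, had differences between −1.97 and −0.94, of which that of *Slc39a14* went from −1.62 to −0.66 with a pseudocount of 1 and was then not called.

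**Figure D3:**
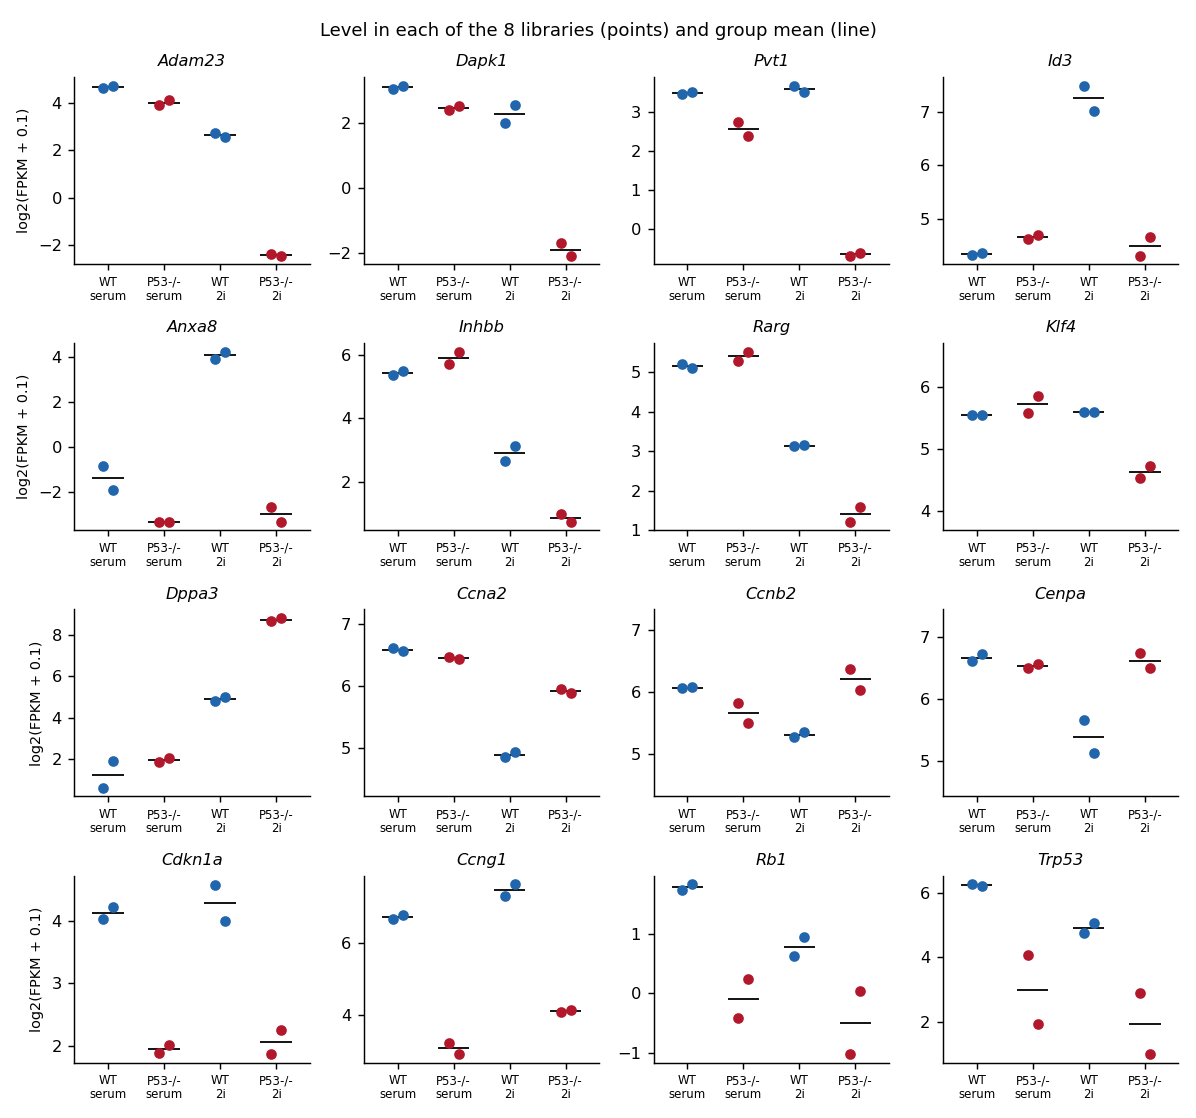
Level of 16 genes in each of the 8 libraries on the log2(FPKM + 0.1) scale (WT blue, P53-/- red, group means as lines, vertical axes differ between panels). P53-/- 2i libraries are lowest for *Adam23*, *Dapk1*, *Pvt1*, *Inhbb*, *Rarg* and *Klf4*, WT 2i libraries stand alone for *Id3*, *Anxa8*, *Ccna2* and *Cenpa*, and *Cdkn1a* and *Ccng1* separate by genotype in both cultures.

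On the positive side, 13 of the 15 genes were called higher in 2i and not called in serum, and *Ddit4* and *Dglucy* were called lower in both and further down in serum. In 2i, P53-/- libraries lay above WT libraries without overlap for the 13, as for 30.2% of all genes. The 13 were chosen by these same values, so this is a description.

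*Ccna2*, the cyclin A of S and G2 phase, was at 61.5 and 59.2 FPKM in P53-/- against 28.8 and 30.4 in WT under 2i, and 88.0 and 85.8 against 96.9 and 94.0 in serum. *Ccnb2*, cyclin B2 of mitosis, was at 38.7 and 40.8 FPKM (WT) against 82.9 and 65.5 (P53-/-) in 2i, and 66.8 and 67.5 (WT) against 56.4 and 45.4 (P53-/-) in serum. *Cenpa*, the histone H3 variant of centromeres, was at 107 and 89.8 FPKM in P53-/- against 50.3 and 34.8 in WT under 2i, and 89.7 and 94.1 against 97.6 and 105 in serum. WT 2i was the lowest group for all 3 genes, and in serum both P53-/- libraries lay below WT.

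*Ccna2* rose 2.04-fold in 2i (adjusted p = 0.00118), its serum effect was −0.14 (adjusted p = 0.672), and the difference was 1.16 ± 0.16 (SE, adjusted p = 0.0525). The difference was 1.30 ± 0.22 for *Ccnb2* (SE, adjusted p = 0.0803) and 1.37 ± 0.25 for *Cenpa* (SE, adjusted p = 0.0996). *Nsd2*, a methyltransferase for lysine 36 of histone H3, was at 4.48 and 5.17 FPKM (WT) against 12.1 and 11.9 (P53-/-) in 2i, and 19.9 and 20 (WT) against 21.7 and 22 (P53-/-) in serum, with a difference of 1.18 ± 0.19 (SE, adjusted p = 0.0795).

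Promoters of many G2/M genes carry the cell cycle genes homology region (CHR), through which the DREAM complex of pocket proteins, E2F and MuvB represses them. *Ccnb2* and *Cenpa* are shown because they were the 2 list genes called. The capitals mark the CHR letters TTTGAA, in stretches from 80 bases before the RefSeq start to 24 bases after it (GRCm38.p6, 5′ to 3′ on the gene's strand).
Ccnb2, chr9:70421531-70421634 (−): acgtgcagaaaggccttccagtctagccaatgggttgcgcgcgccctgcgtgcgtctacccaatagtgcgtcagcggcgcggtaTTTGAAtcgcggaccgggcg
Cenpa, chr5:30666806-30666909 (+): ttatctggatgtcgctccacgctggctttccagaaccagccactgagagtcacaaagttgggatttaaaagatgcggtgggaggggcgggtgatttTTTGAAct
TTTGAA, on either strand, was in the 300-base window of 33 of 47 G2/M genes with a window (70.2%) and of 1255 of 8966 tested genes (14.0%), and over all 27025 symbols with a window in 20.2%. It was in 3 of 10 windows of the called positive genes (*Ccnb2*, *Cenpa* and *Rcbtb2*) and in 2 of 23 of the negative ones (*Anxa8* and *Id3*). A match of 6 letters is a description and not a binding site.

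The list of G2/M genes lay on the same side. Of 54 tested, 43 had a difference above 0, with a median of 0.34 beside 0.02 over all genes, and 2 were called (0.133% of all genes were called above 0). At an unadjusted p under 0.05, 22 were above 0 (7.31% of all genes were) and 1 below (6.35% of all genes). The list median stayed between 0.28 and 0.45 with each library left out. In 2i, 40 of the 54 lay above WT in both P53-/- libraries without overlap (74.1%, against 30.2% of all genes), and in serum 11 did (20.4%, against 26.4%). Of the 54, 13 were called higher in 2i (4.95% of all genes were) and 3 lower (6.53% of all genes), and in serum 0 were called higher (0.372%) and 2 lower (1.26%).

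Their summed level was 2319 and 2037 FPKM in P53-/- against 1724 and 1791 in WT under 2i, and 3515 and 3302 against 3584 and 3591 in serum. WT 2i had the lowest sums and serum libraries the highest in both genotypes. Cells had been sorted in G1 phase, and in bulk RNA a few more cells of other phases and more transcript per cell cannot be told apart. By p-value, *Bub1* (0.95, limma adjusted p = 0.121) and *Cks1b* (0.94, limma adjusted p = 0.121) came next in the list and did not pass.

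The 43 S-phase genes had a median of 0.26, with 38 above 0 and none called. At an unadjusted p under 0.05, 11 were above 0 (7.31% of all genes were) and 1 below (6.35%). Their sums were 2590 and 2782 FPKM (WT) against 3290 and 3156 (P53-/-) in 2i, and 4154 and 4028 (WT) against 4061 and 3949 (P53-/-) in serum. The list of G1/S cyclins, kinases, inhibitors and E2F factors, which act before S phase, had a median of 0.06 over 21 genes, between 0.02 and 0.20 with each library left out. Of the 21, 16 were above 0 and none was called. At an unadjusted p under 0.05 in limma, 4 were above 0 (7.31% of all genes were) and 1 below (6.35%), which was *Ccnd2* at −1.53. *Cdc25a*, the phosphatase that activates CDK2, was nearest to a call at 1.02 (adjusted p = 0.108), with 37.7 and 34.3 FPKM in P53-/- against 18.1 and 17.0 in WT under 2i, and 52.4 and 42.4 against 49.1 and 44.4 in serum. *Cdkn1b*, which encodes the inhibitor P27, had a difference of 0.55 (adjusted p = 0.239).

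*Dppa3*, a germline and oocyte factor that protects DNA methylation in the early embryo and is a mark of naive ESCs, had the largest rise in 2i of the called genes. It was at 28.1 and 31.5 FPKM (WT) against 397 and 446 (P53-/-) in 2i, and 1.44 and 3.66 (WT) against 3.54 and 4.07 (P53-/-) in serum. The P53-/- 2i libraries were 14.1-fold above WT, while in serum all 4 libraries were below 5 FPKM and the genotypes overlapped. The difference was 3.13 ± 0.47 (SE, adjusted p = 0.0795).

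*Slc22a13b-ps* and *Gm16104* had larger differences at low levels. *Slc22a13b-ps*, a pseudogene of a transporter, was at 4.51 and 4.53 FPKM in P53-/- against 0.546 and 0.139 in WT under 2i, and 0.357 and 0.0791 against 0.664 and 0.525 in serum. *Gm16104*, a predicted gene, was listed at 0 in both WT libraries under 2i, where P53-/- libraries held 0.788 and 0.683 FPKM. In serum it was at 2.92 and 4.1 FPKM (WT) against 3.10 and 2.11 (P53-/-). Neither passed 5 FPKM in any library. The difference was 4.83 ± 0.87 for *Slc22a13b-ps* (SE, adjusted p = 0.0943) and 3.48 ± 0.56 for *Gm16104* (SE, adjusted p = 0.0795), while adding 1 FPKM in place of 0.1 gave 2.45 and 1.12, the latter not called (adjusted p = 0.146). Adding 0.01 FPKM gave 5.71 and 6.65, the former not called. Reads of a pseudogene can be shared with its parent gene, so the *Slc22a13b-ps* values are uncertain.

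*Dglucy*, the D-glutamate cyclase of mitochondria, was at 13.4 and 16.2 FPKM (WT) against 4.45 and 3.54 (P53-/-) in 2i, and 1.98 and 1.73 (WT) against 0.0253 and 0 (P53-/-) in serum. P53-/- lay below WT in both cultures. Its difference of 2.26 ± 0.40 (SE, adjusted p = 0.0871) rested on the pseudocount, since with a pseudocount of 1 the sign turned to −0.16, and with 0.01 it was 4.75.

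The remaining positive genes were *Rcbtb2* (2.07), the zinc finger gene *Zfp869* (1.99), *Fgfrl1*, an FGF receptor without a kinase domain (1.72), the transporter *Slc35f2* (1.55), the RNA-binding protein gene *Pcbp4* (1.40) and the phospholipid acyltransferase gene *Lpcat1* (1.12), with adjusted p-values between 0.0795 and 0.0904. All 6 were called higher in 2i, and their serum effects lay between −0.39 and 0.15. *Lpcat1* was at 58.6 and 57.6 FPKM in P53-/- against 26.6 and 26.6 in WT under 2i, and 23.6 and 20.9 against 23.8 and 20.6 in serum, so that P53-/- 2i stood apart from the other 3 groups.

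Chromosomes differed slightly as a whole. Median differences ran from −0.15 on chromosome 7 to 0.25 on chromosome 9, and the 4 called genes of chromosome 9 (*Ccnb2*, *Pcbp4*, *Slc35f2* and *Slc22a13b-ps*) were all positive. After centring each library on its chromosome medians, *Ccnb2* had a difference of 1.03 and *Slc22a13b-ps* one of 4.56, and all 4 stayed called. Of the 44 genes, *Nsd2* (adjusted p = 0.118) and *Rec8* (adjusted p = 0.115) lost the call under this centring. *Nsd2* lies on chromosome 5, where the median was 0.18.

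Several other lists of genes grouped by function had medians away from 0 with few calls. The 14 germline and meiosis genes, which are silenced by DNA methylation in somatic cells, had a median of −0.63, with 13 below 0, 4 of them at an unadjusted p under 0.05 (6.35% of all genes were) and 0 called (limma). The median was −0.99 without P53-/- serum library 1 and −0.29 without P53-/- serum library 2. Here the serum effect was the larger: 7 of the 14 were called higher in serum (0.372% of all genes were) and 2 in 2i (4.95% of all genes), and 11 lay above WT in serum without overlap (78.6%, against 26.4% of all genes) compared with 35.7% in 2i. *Rhox6*, an X-linked homeobox gene of germ cells, was at 13.7 and 15.5 FPKM (WT) against 6.32 and 14.1 (P53-/-) in 2i, and 0.517 and 0.200 (WT) against 1.47 and 2.42 (P53-/-) in serum, with a difference of −2.83 (adjusted p = 0.122) that was −1.67 with a pseudocount of 1.

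The 19 long non-coding RNAs and snoRNA hosts had a median of −0.50, with 18 below 0 (48.3% of all genes were) and *Pvt1* called (0.257% of all genes were called negative), and the median was −0.31 without P53-/- serum library 2. *Malat1*, a nuclear RNA of nuclear speckles, was at 157 and 162 FPKM in P53-/- against 435 and 318 in WT under 2i, and 784 and 701 against 791 and 808 in serum. In 2i it fell by 1.22 on the log2 scale (adjusted p = 0.00377), while the difference between cultures, −1.11, had an adjusted p of 0.121.

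Formative and Nodal pathway genes (median −0.47 over 11 genes) and Notch pathway genes (−0.51 over 10) had none called. The former median was −0.79 without WT 2i library 2 and −0.25 after quantile normalization, and the latter was −0.30 without P53-/- 2i library 2 and −0.20 with a pseudocount of 1. In the Notch list 5 genes were called lower in 2i, where 6.53% of all genes were, and 0 in serum, where 1.26% were. The target *Hes1* had a difference of −1.01 (adjusted p = 0.122). *Nodal*, the TGF-beta ligand of the formative state, was at 69.0 and 48.3 FPKM (WT) against 18.8 and 17.2 (P53-/-) in 2i, and 20.7 and 19.8 (WT) against 11.9 and 15.2 (P53-/-) in serum, with a difference of −1.10 (adjusted p = 0.144). Its antagonist *Lefty1* had the opposite sign at 1.95 (adjusted p = 0.158), with 12.3 and 6.38 FPKM in P53-/- against 1.45 and 2.59 in WT under 2i.

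Basement membrane genes (median −0.38 over 13 genes) and axon guidance genes (−0.36 over 23) were below 0 with 0 and 1 called (*Ntn1*). Of all genes, 0.257% were called negative. At an unadjusted p under 0.05 in limma, 4 of the 13 and 6 of the 23 were below 0 (6.35% of all genes were). Above 0 at that level were 1 and 2 (7.31% of all genes). The basement membrane median was −0.15 without WT 2i library 1. The axon guidance median was −0.15 without P53-/- serum library 1 and also with a pseudocount of 1 or quantile normalization. In contrast, 28 nucleolar ribosome biogenesis genes (−0.03), 84 cytoplasmic ribosomal protein genes (−0.05) and 78 oxidative phosphorylation subunits (−0.10) lay close to 0 with none called, and all 3 medians changed sign under at least 1 setting.

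**Figure D4:**
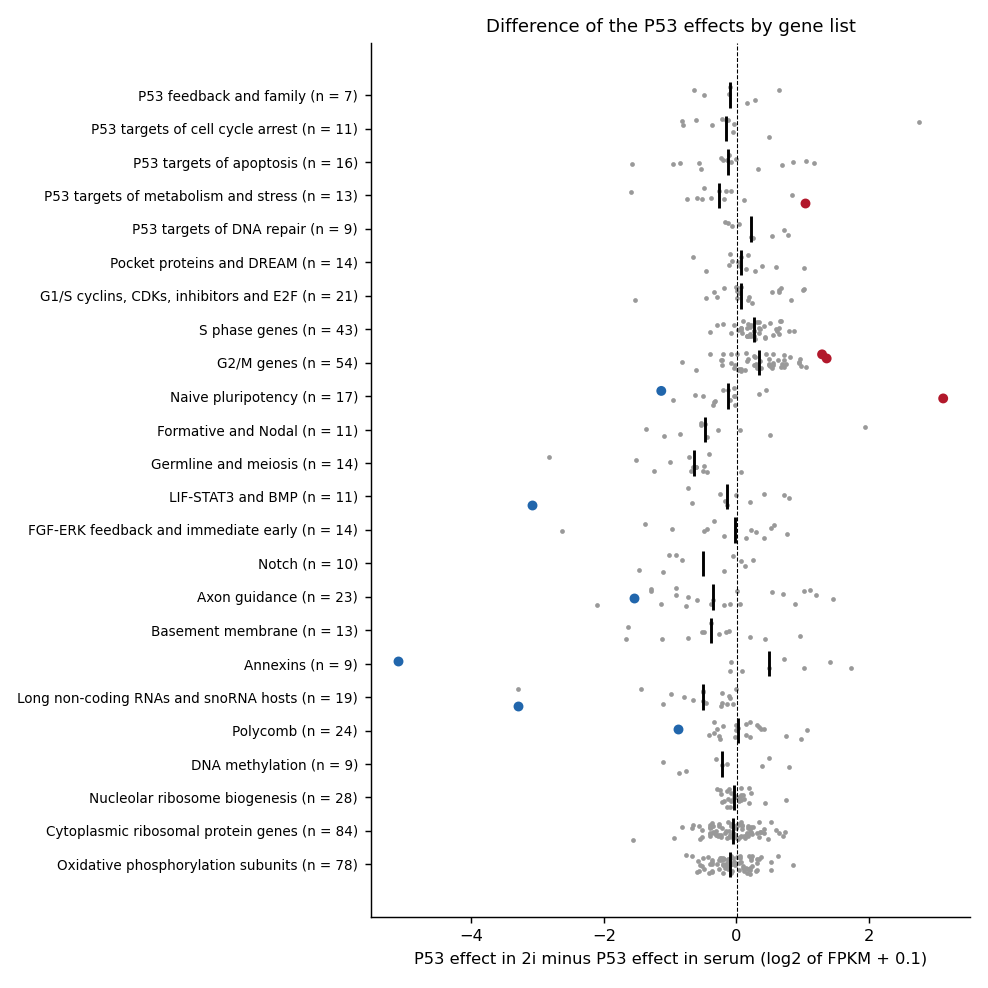
Difference of the P53 effects (2i minus serum, log2 of FPKM + 0.1) for each tested gene of 24 lists, with called genes in blue or red, the list median as a black bar and the median over all genes (0.02) dashed. S-phase and G2/M genes sit mostly right of 0, and germline and long non-coding RNA genes mostly left of it.

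The same values can be read as the change of the culture effect (2i minus serum) when P53 was deleted. The culture effect was called for 57.2% of genes in WT and 59.6% in P53-/-, in the same 8 libraries. Among the 29 negative genes, *Anxa8*, *Exoc4*, *Gas6*, *Id3*, *Ly6k* and *Mcm3ap* were called higher in 2i than in serum in WT (27.4% of all genes were) and were not called in P53-/-. *Ada*, *Dyrk3*, *Gpc4*, *Klf4*, *Klk8*, *Ntn1*, *Pvt1* and *Tubb3* were not called in WT and were lower in 2i in P53-/- (31.0% of all genes were). *Cited2* and *Foxd3* were higher in 2i in WT and lower in 2i in P53-/-.

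Among the 15 positive genes, *Ccna2*, *Ccnb2*, *Cenpa* and *Pcbp4* were lower in 2i than in serum in WT (29.9% of all genes were) and not called in P53-/-. For *Ccna2* the culture effect was −1.69 in WT (adjusted p = 7.04e-06) and −0.53 in P53-/- (adjusted p = 0.00253, short of the 1.5-fold limit), and for *Cenpa* −1.27 in WT and 0.09 in P53-/-. *Slc35f2* and *Zfp869* were lower in 2i in WT and higher in 2i in P53-/- (28.5% of all genes were). Over the 54 G2/M genes the median culture effect was −1.27 in WT and −0.91 in P53-/-.

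The number of called genes depended strongly on single libraries. It was 44 with all libraries, 14 without P53-/- 2i library 1, 9 without P53-/- 2i library 2, 40 without WT 2i library 1, 139 without WT 2i library 2, 135 without P53-/- serum library 1, 15 without P53-/- serum library 2, 11 without WT serum library 1 and 8 without WT serum library 2. *Adam23*, *Dapk1*, *Id3* and *Pvt1* were called with each of the 8 libraries left out. *Inhbb* was lost without P53-/- 2i library 2 (adjusted p = 0.104) and *Rarg* without WT serum library 2 (adjusted p = 0.146), and both were called in the other 7 fits. The other 38 were called in 1 to 4 of the 8 fits, though the sign of all 44 differences stayed the same in every one of the 8. The count for the P53 effect in 2i was 605 without P53-/- 2i library 2, and that in serum was 83 without P53-/- serum library 2, 58 without WT serum library 1 and 69 without WT serum library 2.

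**Figure D5:**
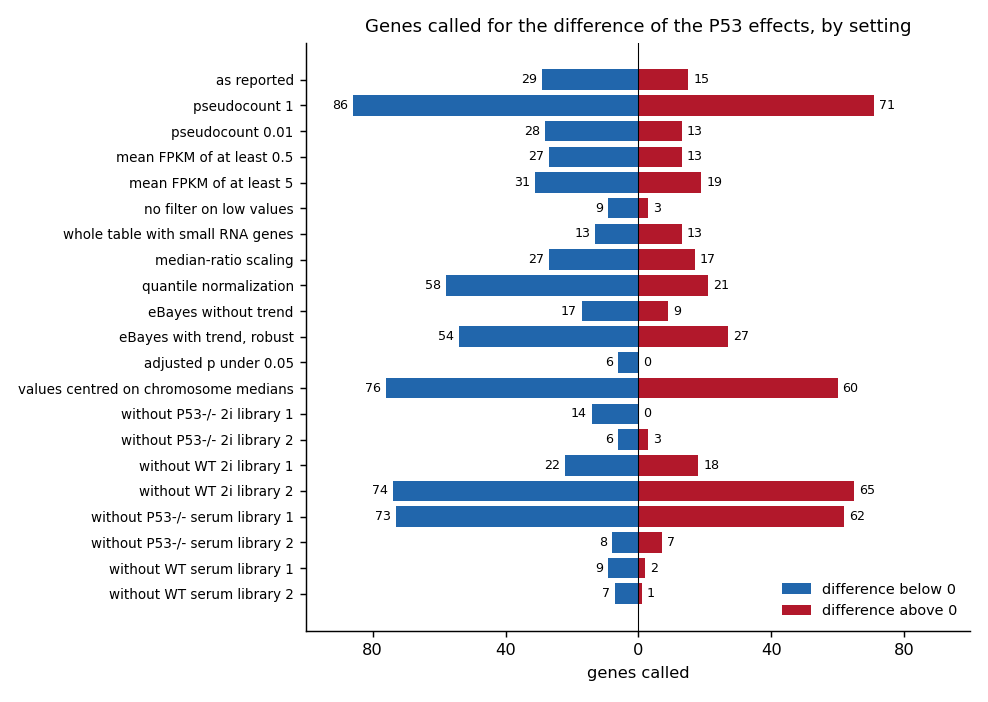
Number of genes called for the difference of the P53 effects under each setting, negative to the left (blue) and positive to the right (red). The reported fit has 29 and 15, leaving out WT serum library 2 gives 7 and 1, and leaving out WT 2i library 2 gives 74 and 65.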

How the data were processed

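Total RNA of G1-sorted ESCs had been depleted of ribosomal RNA, reverse-transcribed with random primers and made into stranded libraries. The authors deposited FPKM values in 1 table of 8 libraries, and the processing notes of the authors name STAR, Cufflinks, DESeq2 and mm9, with no versions or roles. Columns name genotype and culture only. Small RNA genes (1299 symbols, which took 92.7% to 99.4% of each library's summed FPKM) were left out. A single limma fit (limma 3.58.1, R 4.3.3, eBayes with trend) of log2(FPKM + 0.1) in 4 groups gave all contrasts, with Benjamini-Hochberg adjustment over 11292 genes. On this scale values of low genes depend on the pseudocount: the fold change within a culture is understated, and a difference of differences can move either way. Genes were called at an adjusted p under 0.1 and over 1.5-fold. An exact permutation test of 2 against 2 libraries cannot go below p = 0.33. Scaling by mapped fragments is the authors', and median-ratio factors lay between 0.991 and 1.02. FPKM values carry no counts, so depth is an estimate and no counting interval is given.

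Named genes were *Trp53*, called genes with separated genotypes (at most 15 per direction), called list members, at most 4 members per list with the smallest p, *Cdkn1a*, *Rb1*, *Rbl2*, *Mdm2* and *Ccng1*. The comparison, lists, rules and alternatives were chosen with earlier results of these data known. Lists of S-phase and G2/M genes come from Seurat 5.3.0. Promoter windows are from RefSeq (GRCm38.p6) and were matched by symbol. The pipeline was tested on simulated data.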

Additional observations from a re-analysis of the deposited data

Results flagged for a closer look

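The P53 effect differed between 2i and serum by the test of the difference itself for each gene below, and the values are 2i minus serum on the log2(FPKM + 0.1) scale. Negative differences were those of *Anxa8* (−5.11), *Adam23* (−4.34), *Ly6k* (−3.76), *Dapk1* (−3.53), *Pvt1* (−3.30), *Id3* (−3.08), *Klk8* (−2.99), *Inhbb* (−2.50), *Armcx2* (−2.35), *Pgbd5* (−2.15), *Gpc4* (−2.12), *Foxd3* (−2.05), *Smpdl3b* (−2.0), *Rarg* (−1.98), *Gas6* (−1.98), *Ntn1* (−1.54), *Tubb3* (−1.33), *Klf4* (−1.13) and *Jarid2* (−0.88). Positive differences were those of *Slc22a13b-ps* (4.83), *Gm16104* (3.48), *Dppa3* (3.13), *Dglucy* (2.26), *Rcbtb2* (2.07), *Zfp869* (1.99), *Fgfrl1* (1.72), *Slc35f2* (1.55), *Pcbp4* (1.40), *Cenpa* (1.37), *Ccnb2* (1.30), *Nsd2* (1.18), *Ccna2* (1.16), *Lpcat1* (1.12) and *Ddit4* (1.04).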

How the results depend on the processing

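No paired analysis was possible because the columns carry no replicate number. The 44 calls for the difference (29 negative, 15 positive) became 157 (86 and 71) with a pseudocount of 1, 12 (9 and 3) with no filter on low values, 26 (13 and 13) over the whole table with small RNA genes and a lower floor of 0.5 FPKM, 79 (58 and 21) after quantile normalization, 26 (17 and 9) without the trend, 81 (54 and 27) with robust eBayes, 6 (all negative) at an adjusted p under 0.05 and 136 (76 and 60) with chromosome medians removed. Leaving out 1 library, with the lone library assumed to vary like the other groups, gave 8 (without WT serum library 2) to 139 (without WT 2i library 2) calls for the difference, 605 (without P53-/- 2i library 2) to 1335 for the P53 effect in 2i and 58 (without WT serum library 1) to 247 in serum. Fits of only the groups compared gave 753 calls in 2i and 74 in serum. *Adam23*, *Dapk1*, *Id3*, *Inhbb*, *Pvt1* and *Rarg* were called under each alternative that tested them, apart from those that left out a library. The sign held in every setting for 43 of the 44 genes, and *Dglucy* turned to −0.16 with a pseudocount of 1. With a pseudocount of 0.01 the calls of *Anxa8*, *Cenpa*, *Cited2*, *Jarid2*, *Rec8* and *Slc22a13b-ps* were lost. The cause of these changes was not tested. With 2 libraries per group and a median standard error of 0.27, small differences between the cultures cannot be told from 0. Depth, estimated up to a common factor, was 5050000 to 12900000 fragments per library.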

Other observations

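Further groups of genes held no called difference between the cultures, with these values on the log2(FPKM + 0.1) scale. The 14 cadherin, junction and epithelial-mesenchymal genes had a median of 0.30, with 5 above 0 at an unadjusted p under 0.05 (7.31% of all genes were) and 0 below (6.35%), and 4 of them were called higher in 2i (4.95% of all genes were) and 0 in serum (0.372% of all genes). The median lay between 0.09 and 0.44 with each library left out. *Epcam*, an epithelial adhesion protein, was at 68.0 and 68.5 FPKM in P53-/- against 42.0 and 28 in WT under 2i, and 82.3 and 87.1 against 92.4 and 93.7 in serum, a difference of 1.13 (limma adjusted p = 0.122). *Cldn3*, a claudin of tight junctions, was at 8.99 and 8.74 FPKM in P53-/- against 2.78 and 2.44 in WT under 2i, and 1.48 and 1.31 against 1.11 and 2.24 in serum, a difference of 1.90 (limma adjusted p = 0.127). P53-/- libraries of both genes stood above WT in 2i only, and in serum those of *Cldn3* lay within the WT range.

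Of 14 genes of FGF-ERK feedback and the immediate early response, which ERK signaling induces, 3 were called lower in 2i (*Egr1*, *Fos* and *Spry2*; 6.53% of all genes were) and 2 higher (*Spry1* and *Etv1*; 4.95%), with a median difference between cultures of −0.02 and 0 called in serum. The sign of that median varied, with 0.20 after quantile normalization and values between −0.38 and 0.11 with each library left out. *Fos* was at 7.45 and 7.55 FPKM in P53-/- against 37.0 and 39.4 in WT under 2i, and 2.23 and 0.984 against 3.58 and 2.48 in serum, a difference of −1.38 (limma adjusted p = 0.238) that was −0.83 without P53-/- serum library 1. *Atf3*, a stress-induced transcription factor, was at 11.1 and 9.71 FPKM in P53-/- against 31.5 and 25.7 in WT under 2i, and 1.30 and 1.39 against 1.57 and 1.63 in serum, a difference of −1.22 (limma adjusted p = 0.121). Of 9 DNA methylation genes, 2 were called lower in 2i (6.53% of all genes were) and 0 higher. These were *Zfp57*, which protects imprints (difference −0.76, limma adjusted p = 0.179), and *Tet2*, which oxidises methylcytosine (−0.87, limma adjusted p = 0.218, or −0.54 without WT 2i library 1), while *Uhrf1*, which recruits DNMT1, had the opposite sign (0.80, limma adjusted p = 0.160). *Serpine2*, a serine protease inhibitor, was called lower in both cultures, by −5.79 in 2i and −3.59 in serum, a difference of −2.20 (limma adjusted p = 0.145) at levels under 0.5 FPKM in every P53-/- library. That difference was −0.70 with a pseudocount of 1 and −4.02 with 0.01.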
